A study of Mus musculus with 6 samples.

Results

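Genes of endoplasmic reticulum (ER)-associated degradation were examined in livers with and without hepatocyte estrogen receptor alpha (ERα). The 10 genes are Derl1, Derl2, Derl3, Sel1l, Syvn1, Edem1, Edem2, Edem3, Herpud1 and Os9, of 18820 genes that the array measures with a probe set assigned to 1 gene. They were chosen by name, with earlier results of these arrays known. Each was read from its probe set with 1 gene, and from the one with the highest mean over the 6 arrays where there were several, which applied to Os9 alone. Liver RNA came from 3 control (CT) and 3 LERKO mice, all female and on the C57BL/6J background, and each mouse had its own Affymetrix Mouse Gene ST array. The controls carried floxed ERα alleles (ERα fl/fl), and LERKO mice carried these alleles together with cre recombinase under the albumin promoter (Alb-cre/ERα fl/fl). Cre and the loss of ERα therefore cannot be told apart in this comparison, and liver cells that do not use the albumin promoter keep their receptor. Food was freely available to the colony, but the age and any fasting of these 6 mice are not given in the sources used here. The question is whether loss of ERα in hepatocytes went with other levels of the transcripts that serve this pathway.

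ER-associated degradation removes proteins that fail to fold in the ER. Mannose trimming marks a misfolded glycoprotein, lectins hand it to a ubiquitin ligase in the ER membrane, and the ubiquitinated chain is drawn into the cytosol and broken down by the proteasome. The ligase HRD1 (gene Syvn1) and its partner SEL1L form the best conserved of these membrane complexes. Hepatocytes secrete most plasma proteins and rely on the pathway, and many of its genes are induced by the transcription factors ATF6 and XBP1 when unfolded proteins accumulate.

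Levels are given as the deposited robust multichip average (RMA) signal on the log2 scale, on which a signal of 100 corresponds to 6.64, and the summed signal of a list of genes on the log2 scale too. The arrays carried the labelled genotype and tissue, and 1 array of each group also carried genes of other organs. Esr1, which encodes ERα, lay between 8.29 and 8.78 in CT and between 6.75 and 7.06 in LERKO mice on the log2 scale (log2 fold change −1.65, adjusted p = 0.149 from limma), although the position of its probes relative to the floxed exon is not given here. All 8 hepatocyte markers were above a signal of 100 in every mouse, with summed signals of 16.05 to 16.14. The 7 measured markers of pancreatic acinar cells were all highest in CT replicate 3, with a summed signal of 10.94 beside 6.94 or less in the other mice. Highest there too were all 6 markers of skeletal muscle, at 9.80 beside 7.90 in LERKO replicate 2 and 6.97 or less in the rest. All 6 markers of adrenal cortex were highest in LERKO replicate 2 (12.80 beside 6.58 or less). The summed signals of Kupffer cell markers (11.03 to 11.72 in CT and 11.45 to 11.65 in LERKO), of sinusoidal endothelial markers (11.15 to 11.52 and 11.17 to 11.34) and of stellate cell markers (11.70 to 12.22 and 11.80 to 12.06) overlapped between the groups. That of the 4 cholangiocyte markers did not, at 7.40 to 7.75 in CT and 7.20 to 7.29 in LERKO mice, with 3 of the 4 below a signal of 100 in all mice. Its part in the results was not tested. A signal of 100 was reached by 9452 to 9865 probe sets in each array.

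Of the 10 genes, 8 had lower and 2 had higher mean levels in LERKO liver, and none passed the 0.05 threshold for the adjusted p in limma. Of all probe sets tested, 53.5% had a difference below 0. In 6 genes the groups did not overlap. Derl3, Edem2, Derl2 and Edem1 were lower in every LERKO mouse than in every CT mouse, and Edem3 and Herpud1 were higher. The background share of probe sets with groups that do not overlap was 13.0% of the 10633 tested (7.13% lower and 5.91% higher in LERKO). Over these probe sets 0 (0.00%) passed an adjusted p of 0.05 in limma, 742 (6.98%) had an unadjusted p under 0.05, and 425 (4.0%) of them were lower. An unadjusted p under 0.05 was reached by 5 of the 10 genes, namely Derl3, Edem1 and Edem2, which were lower, and Edem3 and Herpud1, which were higher. The study's methods name limma for the arrays and, in their general statistics, a t-test with unequal variance. By that t-test, Derl3 and Edem1 reached a p of 0.05 or less, as did 4.28% of all probe sets. After Benjamini-Hochberg correction 0 probe sets remained. The median log2 fold change of the 10 genes was −0.15, beside −0.0099 over all probe sets tested. Derl3 passed the signal filter through 1 CT array only. Passing in that way favours a lower level in LERKO mice, so Derl3 supports none of these counts. Without it, 7 of 9 genes had lower and 2 higher levels, 5 did not overlap between the groups, 4 had an unadjusted p under 0.05 in limma, only Edem1 reached a p of 0.05 by the methods' t-test, and the median was −0.10. Without the arrays of CT replicate 3 and LERKO replicate 2, a choice made after seeing the data, the median of the 10 genes was −0.13 and none passed the threshold. No test was made of the list, since the genes were chosen with results of these arrays known.

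**Figure D1:**
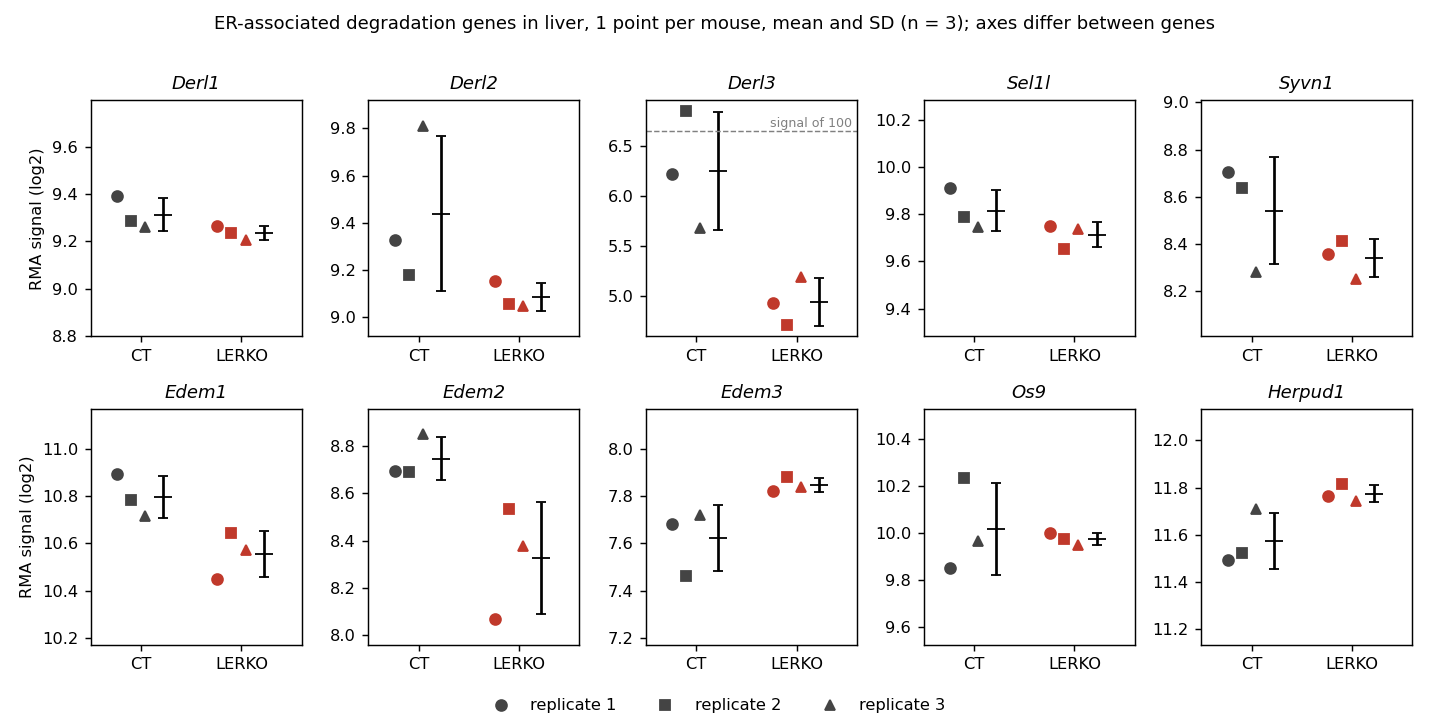
RMA signal (log2) of the 10 genes in each of the 6 mice, 1 symbol per mouse, and beside each group of 3 its mean with the SD. The vertical axes differ between genes, and the dashed line in the Derl3 panel marks a signal of 100. Derl2, Derl3, Edem1 and Edem2 are lower and Edem3 and Herpud1 higher in each LERKO mouse than in each CT mouse.

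The promoters of 3 of the genes hold a complete ER stress element, the sequence through which ATF6 and XBP1 act together with the CCAAT-binding factor NF-Y. RefSeq (GRCm38.p6) windows from 250 bases before to 50 after the transcript start were searched on both strands. They were given for 9 of the 10 genes, with a pair of windows for Derl2 and none for Derl1. The 250 bases before the start are shown for Herpud1, Derl3 and Syvn1, which hold a complete element, and for Edem2, the member of its family with the largest difference. They are written 5′ to 3′ on the strand of the gene, and capitals mark the complete element. The windows lie at chr8:94386179-94386428 (plus strand) for Herpud1, chr10:75893148-75893397 (plus strand) for Derl3, chr19:6046326-6046575 (plus strand) for Syvn1 and chr2:155729476-155729725 (minus strand) for Edem2.
Herpud1: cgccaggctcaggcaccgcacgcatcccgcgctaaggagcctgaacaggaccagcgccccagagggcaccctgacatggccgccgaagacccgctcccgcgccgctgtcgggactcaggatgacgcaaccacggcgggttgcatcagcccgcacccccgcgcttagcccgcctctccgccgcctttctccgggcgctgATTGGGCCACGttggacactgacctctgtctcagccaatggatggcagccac
Derl3: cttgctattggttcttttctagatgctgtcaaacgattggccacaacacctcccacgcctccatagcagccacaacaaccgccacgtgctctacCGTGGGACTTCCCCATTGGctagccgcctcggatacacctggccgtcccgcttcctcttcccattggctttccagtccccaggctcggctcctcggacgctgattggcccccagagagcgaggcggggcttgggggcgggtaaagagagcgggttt
Syvn1: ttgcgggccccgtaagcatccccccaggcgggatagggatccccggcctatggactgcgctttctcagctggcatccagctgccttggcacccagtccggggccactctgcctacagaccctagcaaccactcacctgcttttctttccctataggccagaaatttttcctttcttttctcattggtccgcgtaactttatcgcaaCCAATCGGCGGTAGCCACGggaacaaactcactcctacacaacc
Edem2: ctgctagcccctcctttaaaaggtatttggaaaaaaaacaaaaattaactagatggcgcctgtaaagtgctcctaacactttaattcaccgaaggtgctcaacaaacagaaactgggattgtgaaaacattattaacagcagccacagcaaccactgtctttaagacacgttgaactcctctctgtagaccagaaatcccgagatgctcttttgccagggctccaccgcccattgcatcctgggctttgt
The classical element, ERSE, is CCAAT followed after any 9 bases by CCACG. It occurred in Syvn1 as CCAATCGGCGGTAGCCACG, from base −44 to −26, and on the opposite strand in Derl3, where the strand of the gene reads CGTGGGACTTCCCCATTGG, from −156 to −138. It was found in 39 of 32851 RefSeq windows (0.119%). The second form, ERSE-II, is ATTGG and CCACG with any 1 base between them. Herpud1 held it from −52 to −42, and so did 12 windows in all (0.0365%). The shorter words CCAAT (37.4% of windows) and CCACG (32.8%), which on one strand or the other are parts of both elements, occurred together in 8 of the 9 genes and in 11.7% of all windows. Edem2 was the exception, with CCACG alone after the start. Neither TGACGTGG, the core of the unfolded protein response element (0.676% of windows), nor the estrogen response element, GGTCA and TGACC with any 3 bases between them (0.07% of windows), occurred in the windows of these genes. A match of letters describes the window only, and other spellings or more distant sites were not searched. In LERKO liver the 3 genes with a complete element had log2 fold changes of −1.30 for Derl3, −0.20 for Syvn1 and 0.20 for Herpud1. Derl3 reached a signal of 100 in 1 array only, and the groups of Syvn1 overlapped. The part of the element in these values was not tested.

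The derlins span the ER membrane and take part in moving misfolded proteins out of the ER. Derl3 is known from secretory cells and from induction by ER stress. Its signal was 6.22, 6.85 and 5.68 in the CT mice and 4.93, 4.72 and 5.19 in the LERKO mice, so that the lowest CT mouse was 0.48 above the highest LERKO mouse. The log2 fold change was −1.30 (95% confidence interval −2.00 to −0.61, standard error 0.29, adjusted p = 0.703 from limma). It reached a signal of 100 in 1 of 6 arrays, CT replicate 2, and lay below in the other CT mice and in all LERKO mice. Signals this low follow the transcript less closely, so the log2 values of Derl3 are differences in signal, they are not ranked against those of the other genes, and no linear fold is given. With 1 array left out the log2 fold change ranged from −1.588 without CT replicate 3 to −1.003 without CT replicate 2. The within-group SD was 0.45 on the log2 scale, larger than that of 96.5% of the probe sets tested. Derl1 and Derl2 were well above 100 in all mice.

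For Derl2 the CT mice had 9.33, 9.18 and 9.81, and the LERKO mice had 9.15, 9.06 and 9.05. The groups were separated by only 0.03, and CT replicate 3 stood far above the others. The log2 fold change was −0.35 (95% confidence interval −0.74 to 0.03, adjusted p = 0.709 from limma), and without CT replicate 3 it was −0.17. When each array was centred on its median, or under cyclic loess, the groups overlapped for Derl2. Derl1 lay between 9.26 and 9.39 in CT and between 9.21 and 9.27 in LERKO mice, with a log2 fold change of −0.08 (95% confidence interval −0.24 to 0.09). The groups of Derl1 overlapped, and its mice differed little among themselves.

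The mouse with the high Derl2 signal, CT replicate 3, was the one whose array also carried pancreatic genes and the highest muscle signal. The part of these tissues in the Derl2 signal was not tested. Derl3 was lowest of the CT mice in that mouse, at 5.68 on the log2 scale. Without CT replicate 3 and LERKO replicate 2, the log2 fold change was −1.47 for Derl3, −0.15 for Derl2 and −0.10 for Derl1. Plasma cells are another secretory cell type with high Derl3. All 6 of their markers stayed below a signal of 100 in every mouse, at 4.99 or less, with a summed signal of 6.54 to 6.85 in CT and 6.46 to 6.69 in LERKO mice, and their part in the Derl3 signal was not tested. In whole liver, fewer cells of a type and less RNA per cell cannot be told apart.

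**Figure D2:**
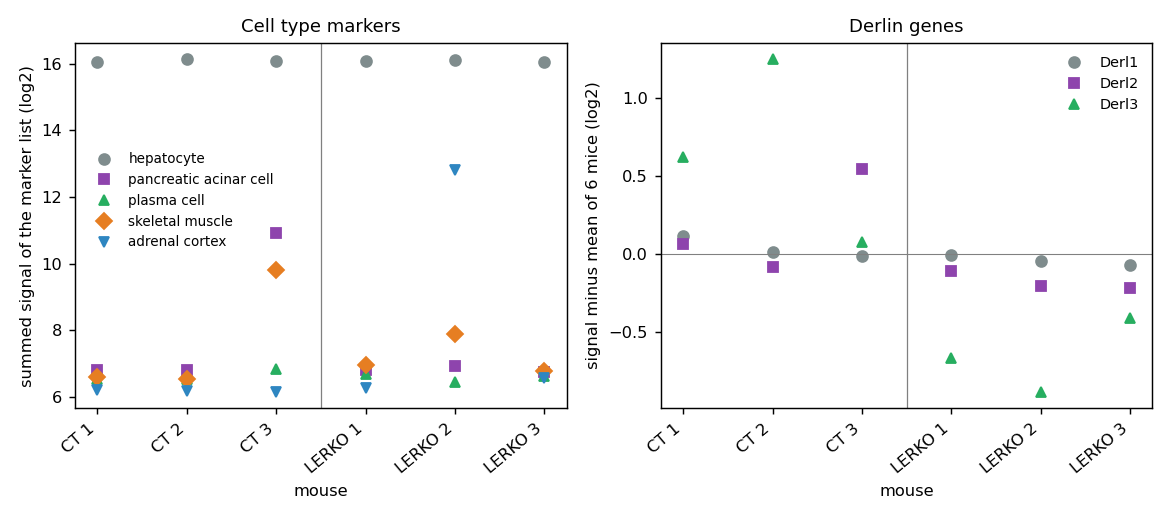
Left panel, summed signal of 5 marker lists (log2) in each of the 6 mice. Right panel, RMA signal of Derl1, Derl2 and Derl3 in the same mice, as the difference from the mean of the 6 mice for each gene (log2). CT 3 has the highest pancreatic and muscle signal and the highest Derl2, LERKO 2 has the highest adrenal signal, and Derl3 is above its mean in each CT mouse and below it in each LERKO mouse.

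The HRD1 complex showed small differences. Syvn1, the ubiquitin ligase itself, had signals of 8.70, 8.64 and 8.28 in the CT mice and of 8.36, 8.41 and 8.25 in the LERKO mice. CT replicate 3 lay among the LERKO mice, so the groups overlapped. On the log2 scale the fold change was −0.20 (95% confidence interval −0.50 to 0.10, adjusted p = 0.764 from limma). It was −0.33 without CT replicate 3, −0.12 without CT replicate 1 and −0.365 without CT replicate 3 and LERKO replicate 2, and the adjusted p did not pass in any of these (0.343 at the lowest). Sel1l, the partner that stabilises the ligase and recruits the lectins, lay between 9.74 and 9.91 in CT and between 9.65 and 9.75 in LERKO, with a log2 fold change of −0.10 (95% confidence interval −0.28 to 0.08). Without CT replicate 3, neither gene overlapped between the groups, and nor did 29.1% of all probe sets.

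Herpud1, which encodes a ubiquitin-like membrane protein that joins the HRD1 complex and is strongly induced by ER stress, had higher levels in LERKO liver. The CT mice had 11.49, 11.52 and 11.71 and the LERKO mice 11.76, 11.81 and 11.74. The LERKO mice lay close together, and CT replicate 3 came within 0.03 of them. Its log2 fold change was 0.20, or 1.15-fold (95% confidence interval 0.004 to 0.39 on the log2 scale, adjusted p = 0.703 from limma). Leaving out single arrays gave values from 0.16 to 0.27, and the groups overlapped when arrays were centred on their median. Hspa5, the main ER chaperone and likewise a target of ATF6, lay on the other side of 0, at 11.25, 11.14 and 10.95 in CT and at 10.49, 10.68 and 10.54 in LERKO mice (log2 fold change −0.54, 95% confidence interval −0.79 to −0.30, adjusted p = 0.703 from limma). The difference between Herpud1 and Hspa5 was not tested.

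The EDEM proteins and OS9 recognise the glycans of misfolded proteins. EDEM2 starts the trimming of mannose that marks a glycoprotein for degradation, and EDEM1 and EDEM3 continue it. Edem2 had signals of 8.70, 8.69 and 8.85 in the CT mice and of 8.07, 8.54 and 8.38 in the LERKO mice. The CT mice were close together, the LERKO mice were spread, and LERKO replicate 1 was lowest. Edem2 had a log2 fold change of −0.42, a level 1.34-fold lower (95% confidence interval −0.73 to −0.11 on the log2 scale, adjusted p = 0.703 from limma), and with 1 array left out it ranged from −0.52 to −0.29. Edem1 had 10.89, 10.78 and 10.72 in the CT mice and 10.45, 10.64 and 10.57 in the LERKO mice. Each LERKO mouse was below each CT mouse by at least 0.07. Its log2 fold change was −0.24, or 1.18-fold lower (95% confidence interval −0.44 to −0.04 on the log2 scale, adjusted p = 0.703 from limma).

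Edem3 had the opposite sign to Edem1 and Edem2. It had 7.68, 7.46 and 7.72 in the CT mice and 7.82, 7.88 and 7.84 in the LERKO mice. The LERKO mice differed little among themselves, while CT replicate 2 was well below the other CT mice. Edem3 had a log2 fold change of 0.22, or 1.17-fold higher (95% confidence interval 0.02 to 0.43 on the log2 scale, adjusted p = 0.703 from limma), and without CT replicate 2 it was 0.14. The groups of Edem1, Edem2 and Edem3 stayed apart under median centring and cyclic loess as well. Os9, a lectin that passes trimmed glycoproteins to SEL1L, lay between 9.85 and 10.23 in CT and between 9.95 and 9.999 in LERKO mice. Its log2 fold change was −0.04 (95% confidence interval −0.30 to 0.21), and its sign turned without CT replicate 2, to 0.07. Os9 had a second probe set, and the mean of both gave 0.02.

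**Figure D3:**
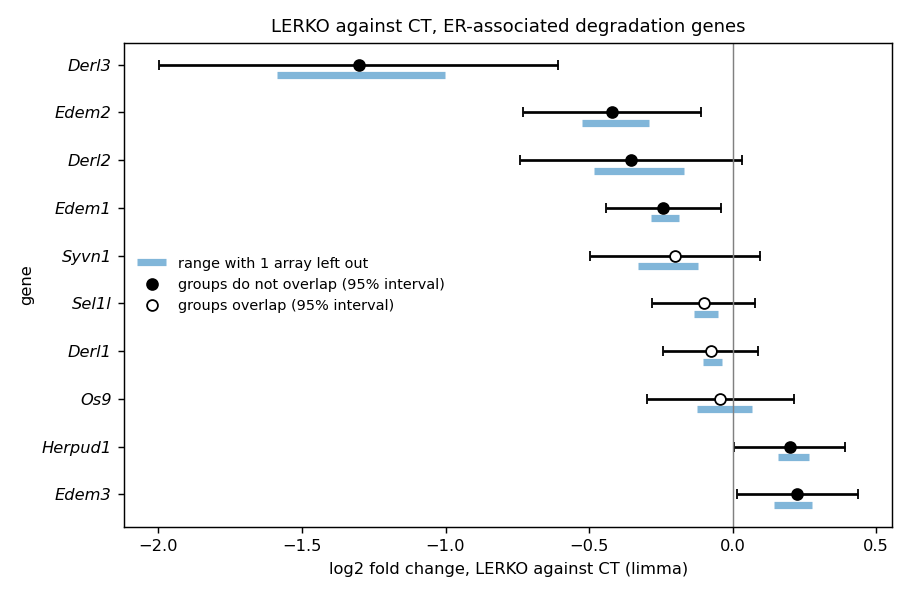
Difference between LERKO and CT liver (log2 fold change) for each of the 10 genes, with the 95% confidence interval from limma (black) and the range of the value with 1 array left out (blue bar). Filled symbols mark genes in which the 3 CT and 3 LERKO mice do not overlap. Derl3, which reached a signal of 100 in 1 of 6 arrays, lies at −1.30, and the other genes lie between −0.42 and 0.22, with Herpud1 and Edem3 above 0.

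The genes did not follow one order of mice. Relative to the mean of the 6 mice, the mean over the 10 genes was 0.12, 0.15 and 0.08 in the CT mice and −0.14, −0.10 and −0.10 in the LERKO mice. Much of that gap came from Derl3. Without it the values were 0.07, 0.03 and 0.08 in CT and −0.08, −0.02 and −0.07 in LERKO mice. CT replicate 1 had the highest signal of the 6 mice for 4 genes (Derl1, Sel1l, Syvn1 and Edem1), CT replicate 2 for Derl3 and Os9, CT replicate 3 for Derl2 and Edem2, and LERKO replicate 2 for Edem3 and Herpud1. An exact two-sided permutation test of single genes gave p = 0.10 for the 6 genes without overlap, which is the smallest p that 3 mice against 3 allow.

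The wider pathway was spread around 0. The list of 58 further genes, grouped by role, had 52 genes with a probe set for 1 gene, of which 41 passed the signal filter. Of these, 21 were lower and 20 higher in LERKO liver, with a median log2 fold change of 0.0, and none passed the threshold. In 8 of the 41 genes (19.5%) the groups did not overlap, 5 lower and 3 higher, beside the 13.0% of all probe sets. At an unadjusted p under 0.05 in limma, 4 of the 41 (Selenos, Erlin1, Uggt1 and Herpud2, the last named after its value was seen) were lower and 0 higher, beside 4.0% lower and 2.98% higher over all probe sets. By role, the medians were −0.06 for substrate recognition (4 genes), −0.09 for other membrane ubiquitin ligases (8 genes), 0.03 for ubiquitin-conjugating enzymes (3 genes), −0.01 for ligase partners (11 genes), 0.05 for extraction by the VCP ATPase (5 genes) and 0.02 for cytosolic handling (10 genes). The last of these groups lay between −0.07 and 0.10.

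Selenos, Erlin1, Man1b1 and Uggt1 had the largest differences of the wider list. Selenos, a selenoprotein that tethers VCP to the derlins, had 7.44, 7.55 and 7.24 in the CT mice and 7.01, 7.10 and 7.09 in the LERKO mice. Every LERKO mouse was below every CT mouse. Its log2 fold change was −0.34 (95% confidence interval −0.57 to −0.12, adjusted p = 0.703 from limma). Erlin1, part of a membrane complex that directs the IP3 receptor to degradation, had 8.74, 9.19 and 8.73 in CT and 8.51, 8.59 and 8.55 in LERKO mice (log2 fold change −0.33, 95% confidence interval −0.65 to −0.01). CT replicate 2 stood above the rest, and the groups did not overlap. Man1b1, a mannosidase, had −0.21 with overlapping groups, and Uggt1, which senses unfolded glycoproteins, had −0.20 without overlap. Both had an adjusted p above 0.7 in limma, at 0.743 and 0.703.

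**Figure D4:**
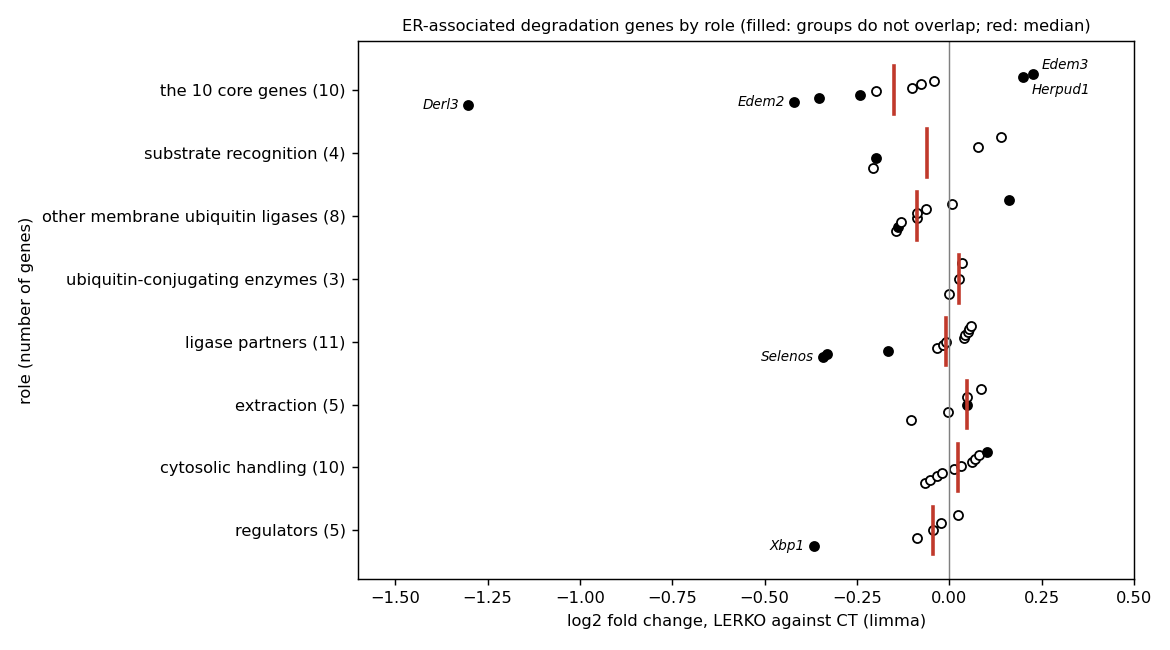
Difference between LERKO and CT liver (log2 fold change) for the 10 core genes, the 41 further genes of the pathway and 5 regulators that passed the signal filter, by role, 1 symbol per gene. Filled symbols mark genes in which the mice of both groups do not overlap, and red lines mark the medians. The cytosolic groups lie close to 0, and Derl3, at −1.30, reached a signal of 100 in 1 of 6 arrays.

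Of the regulators, Xbp1, whose product induces several of these genes, was lower in LERKO liver, at 10.84, 10.90 and 10.88 in the CT mice and at 10.60, 10.55 and 10.36 in the LERKO mice. The CT mice lay within 0.1 of each other, and the LERKO mice were all below them. Xbp1 had a log2 fold change of −0.37 (95% confidence interval −0.56 to −0.17, adjusted p = 0.703 from limma). A gene-level probe set does not separate the spliced from the unspliced Xbp1 transcript. Atf6 had a log2 fold change of 0.02 (95% confidence interval −0.19 to 0.23). Of the 7 regulators, 6 had a probe set for 1 gene and 5 of these passed the filter, with 4 lower and 1 higher. Their median log2 fold change was −0.04, and the groups overlapped for all but Xbp1 (20.0% of the 5 without overlap). Of all probe sets tested, 53.5% were lower and 13.0% had groups that did not overlap.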

How the data were processed

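Liver RNA of 3 CT and 3 LERKO mice was hybridised to 1 array each. The deposited table holds log2 signals, which the authors made with RMA in the oligo package (version not given in the sources used here). Its quantile step forces equal distributions, so a shift shared by most genes would not be seen. Groups follow the sample titles. Of 35556 probe sets in the table, 21218 are paired with 1 gene, 1881 with several and 12457 with none. Symbols were updated by gene identifier from the RefSeq table.

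The study's methods remove genes with signals below 100 across all samples, which can be read in more than 1 way. Here the 10633 probe sets with a signal of 100 or more in at least 1 array were kept. LERKO and CT were compared with limma 3.58.1 in R 4.3.3 (two-sided, genotype as the only term), with p-values adjusted by Benjamini-Hochberg over those probe sets at a threshold of 0.05. The model was tested on simulated data. The labels call the replicates biological, and precision is limited by how few arrays there are. The genes and lists were chosen with earlier results of these arrays known. Named genes are the 10 genes, the 4 largest differences in the wider list, Xbp1, Atf6, Hspa5 and Esr1, and Herpud2 was added after its value was seen. Some genes of the wider list were not analysed here. Alternatives covered the filter, including its stricter reading, a signal of 100 in all 6 arrays, under which 3 probe sets were called. They also covered limma's variance settings, array weights, normalization, the replicate number as a block, the t-test of the methods, the choice of probe set and leaving out arrays.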

Additional observations from a re-analysis of the deposited data

How the results depend on the processing

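Under 18 alternatives, 0 of the 10 genes passed an adjusted p of 0.05. The filters, the variance settings, the t-test and the block leave each fold change as it is by construction; with array quality weights, median centring, cyclic loess or arrays left out, each gene kept its direction except Os9. Os9 had a log2 fold change of 0.018 with array quality weights, of 0.02 as the mean of its probe sets and of 0.066 without CT replicate 2, with adjusted p values from 0.859 to 0.998 over all alternatives. The median of the 10 genes was −0.10 where a signal of 100 was required in all 6 arrays, which removed Derl3, and −0.20 with array quality weights, where the cause was not tested; with 1 array left out it ranged from −0.16 to −0.12. The number of genes without overlap was 4 under median centring and 5 under cyclic loess, beside 13.6% and 13.7% of all probe sets. With 1 array left out it was 6 to 9, beside 19.7% to 29.1% of all probe sets. Fewer mice overlap less often, and both the 9 and the 29.1% were without CT replicate 3. Leaving out CT replicate 3 and LERKO replicate 2 together was chosen after seeing the data and also gave 9, beside 44.0% of all probe sets. Over all probe sets the number called was 3 with a signal of 100 in all 6 arrays, 1 with an intensity trend in limma and 0 to 1 with 1 array left out (1 without LERKO replicate 3); none of these were among the 10 genes. The median of the wider list ranged from −0.043 (without CT replicate 3) to 0.029 (without CT replicate 1). With the replicate number as a block, which cannot move the median (−0.15), 0 probe sets were called, and the unadjusted p in limma was 0.0691 for Edem1, 0.0797 for Edem3 and 0.0962 for Herpud1, beside 0.0256, 0.0385 and 0.0463 without it. Between mice of the same number, deviations from the group means had correlations of −0.16, −0.07 and −0.14. No batch or pairing is labelled, and deviations from means of 3 mice cannot show whether there was one. With so few arrays the precision is limited, and the 95% confidence intervals of Derl1, Derl2, Sel1l, Syvn1 and Os9 include 0.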
